A study of Mus musculus with 8 samples.

Results

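The genes of the mitochondrial ribosome were examined in the livers of WT and SIRT7 KO mice. Members were all genes whose symbol in the platform annotation began with Mrpl or Mrps and a number, measured by probe sets annotated to that gene alone. They came to 74 genes of 12393 and 127 probe sets of 22626, and 33 of the 74 genes had several probe sets, up to 7 for Mrpl15. A further 3 probe sets that listed a gene of the family together with another symbol were left out. Unless stated otherwise, a gene is represented by its brightest probe set, that is, the one whose values average highest. Of the 74, 25 encode proteins of the small subunit and 49 proteins of the large subunit. Mrps30 and Mrps18a are counted with the large subunit, where their proteins lie despite the S in their names, and Mrps36 is counted by its name, although its protein is now known as a part of the 2-oxoglutarate dehydrogenase complex.

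Total RNA of whole liver was hybridised to Affymetrix GeneChip mouse arrays, 1 array for each of 4 WT and 4 SIRT7 KO mice. SIRT7 is a histone deacetylase of the sirtuin family, and mice without it serve as a model of fatty liver disease on a chow diet. The labels name no tissue-specific driver of the deletion and no treatment for either group. The labels give neither age, sex, litter nor hybridisation batch for these animals, and p-values therefore measure only the spread between these samples. Values are log2 expression values as deposited, a difference is SIRT7 KO minus WT, and calls were made where limma gave an adjusted p under 0.15 with Benjamini-Hochberg adjustment over all 22626 probe sets. Sirt7 itself, the check of the labels, lay between 8.57 and 8.98 on the WT arrays and between 4.40 and 4.90 on the SIRT7 KO arrays (difference -4.21 ± 0.13 SE, limma adjusted p = 9.2e-07). The array medians were 6.30 to 6.36, the correlation between any pair of arrays was 0.986 to 0.996, and WT array 4 had the lowest quality weight, 0.539. The mean of 8 measured hepatocyte markers was 14.16 to 14.26 on the WT arrays and 14.06 to 14.13 on the SIRT7 KO arrays, without overlap. Limma called 0 of the 8, against 4.65% of all genes, and 1 had an unadjusted p under 0.05, against 15.6%.

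The mitochondrial ribosome translates the few proteins that are still encoded in mitochondrial DNA, all of them subunits of the respiratory chain and the ATP synthase. Its RNAs come from mitochondrial DNA, whereas every one of its proteins is encoded in the nucleus, made in the cytosol and imported. Some of these proteins descend from bacterial ribosomal proteins and others have no bacterial counterpart. Hepatocytes are rich in mitochondria, and inherited loss of some of these proteins is known to cause liver disease. GABP, an ETS family factor formed of GABPA and GABPB1, NRF1, YY1 and MYC are known to act on nuclear genes of mitochondrial proteins, and GABPB1 is among the proteins that SIRT7 is known to deacetylate.

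No mitochondrial ribosomal protein gene was called changed between SIRT7 KO and WT livers. Limma called 0 of 74 at an adjusted p under 0.15, against 4.65% of all genes (0 higher against 2.17%, 0 lower against 2.48%), and 0 of the 127 probe sets, against 4.31% of all probe sets. At an adjusted p under 0.05 it also called 0, against 0.758% of all genes. The smallest adjusted p was 0.219, that of Mrps18a. At an unadjusted p under 0.05 there were 4 of 74, with 2 higher and 2 lower in SIRT7 KO, against 15.6% of all genes, and 6 of 127 probe sets, against 14.9%. The differences ran from -0.22 to 0.29 with a median of -0.016, while the median over all genes was -0.003. Of the 74, 33 differences were positive and 41 negative.

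The intervals of these differences were narrow. The standard error lay between 0.060 and 0.141, and the 95% interval of the difference stayed within a 1.5-fold change in either direction for 74 of 74 members, against 87.3% of all genes. The latter share takes in genes of any brightness and was not computed for genes as bright as the members. The widest reach was that of Mrpl16, whose interval ended at 1.49-fold, and the median over members of the farther end was 1.19-fold. All 74 were above the median brightness of the probe sets on the array (6.35), with means from 7.75 to 12.05. The median SD between arrays of a genotype was 0.112 for the members and 0.126 for the 4445 genes within the same range of brightness, of which 7.02% were called.

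**Figure D1:**
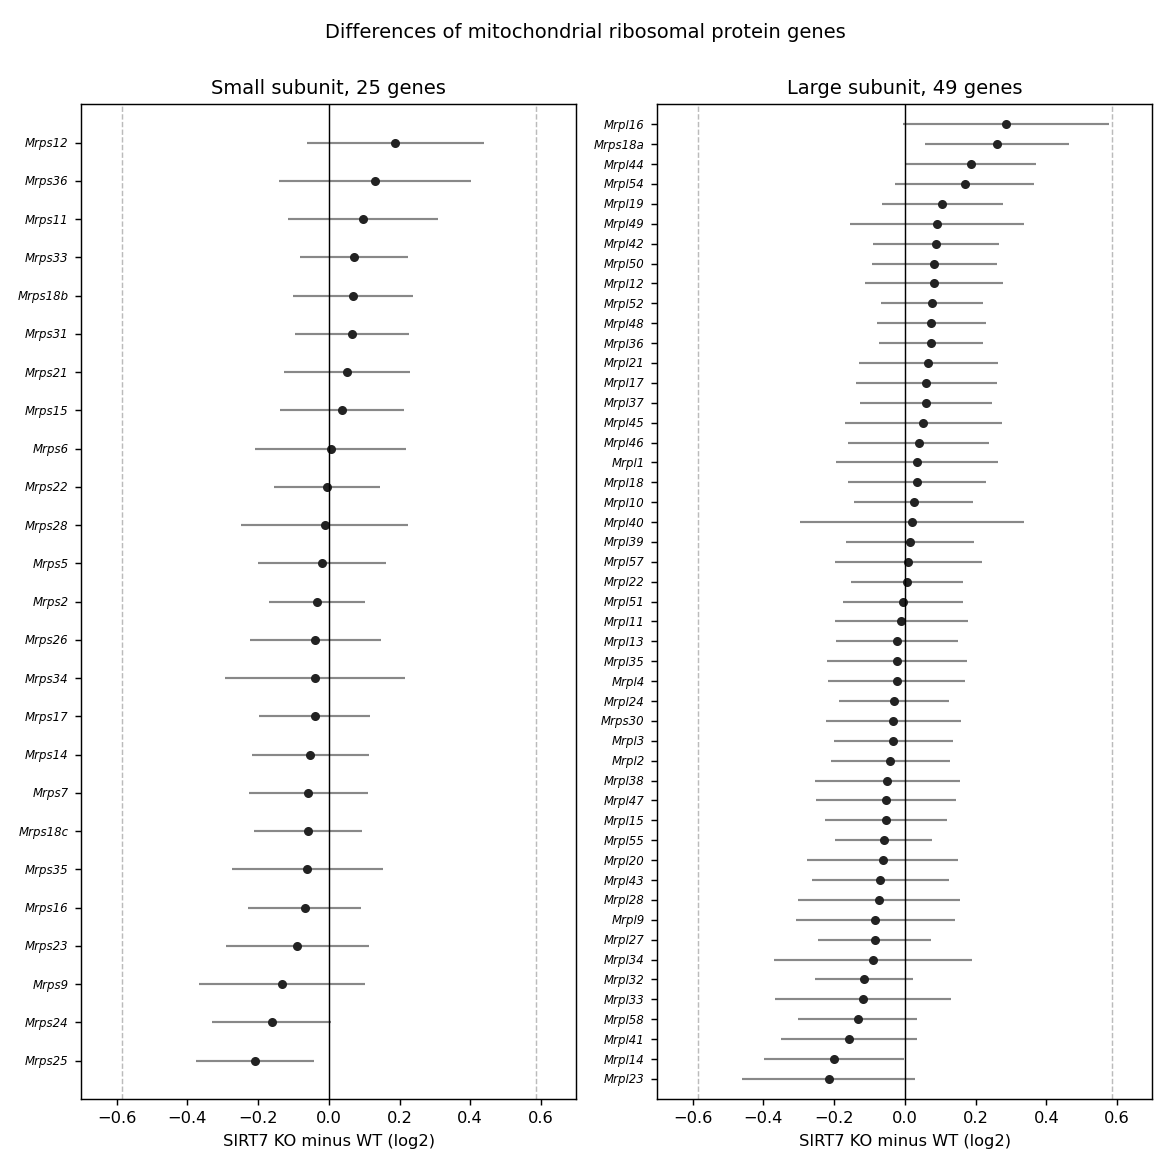
Difference between SIRT7 KO and WT livers (log2, x axis) for each of the 25 small subunit and 49 large subunit genes, with the 95% interval from limma as a line (4 arrays a genotype) and dashed lines at a 1.5-fold change. The points run from -0.22 for Mrpl23 to 0.29 for Mrpl16, and every interval ends inside the dashed lines.

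By subunit and origin the groups lay close together. The small subunit genes had a median difference of -0.033, with 9 positive and 16 negative, and the large subunit genes one of -0.005, with 24 positive and 25 negative. Within the large subunit, the 21 proteins without a bacterial counterpart had a median of 0.040, with 14 positive, and the 28 with a counterpart had a median of -0.027, with 10 positive. Within the small subunit the corresponding medians were -0.022 over 10 genes and -0.033 over 15. In this split Mrps18a and Mrps18b were counted as without a counterpart and Mrps18c as with one. Without 1 array the median ran from -0.070 to 0.020 for the small subunit and from -0.041 to 0.023 for the large subunit. Whether the 4 classes differ was not tested.

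Promoter windows of the genes that the following results turn on are printed here, because the members moved together from array to array. The windows are from RefSeq on GRCm38.p6, 250 bases before to 50 after the gene start, written 5′ to 3′ on the strand of the gene. Of the 74 members, 65 matched by gene ID, with 71 windows, and Mrpl4, Mrpl13, Mrpl15, Mrpl19, Mrpl38, Mrpl54, Mrps28, Mrps34 and Mrps35 did not. Capitals mark the ETS family letters CCGGAAG, searched on both strands. Mrps18a and Mrpl16 had the largest positive differences, Mrps25 and Mrpl44 were the members whose genotypes did not overlap, Mrpl57 followed the other members closely, Mrps12 went against them, and Mrpl46 and Mrps11 start head to head.
Mrpl16 (chr19:11770165-11770464, plus strand): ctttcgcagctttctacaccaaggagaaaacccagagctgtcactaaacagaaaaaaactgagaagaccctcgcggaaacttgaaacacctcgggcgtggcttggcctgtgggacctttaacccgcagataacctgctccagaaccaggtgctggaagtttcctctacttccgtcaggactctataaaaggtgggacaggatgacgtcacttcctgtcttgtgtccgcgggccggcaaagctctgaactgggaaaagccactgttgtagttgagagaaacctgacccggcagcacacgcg
Mrps18a (chr17:46110754-46111053, plus strand): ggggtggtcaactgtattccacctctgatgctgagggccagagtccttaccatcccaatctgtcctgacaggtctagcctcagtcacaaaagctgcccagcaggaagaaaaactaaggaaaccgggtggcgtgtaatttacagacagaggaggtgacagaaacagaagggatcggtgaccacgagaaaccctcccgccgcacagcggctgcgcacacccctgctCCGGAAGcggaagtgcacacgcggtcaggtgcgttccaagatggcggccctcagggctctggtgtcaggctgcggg
Mrpl44 (chr1:79775768-79776067, plus strand): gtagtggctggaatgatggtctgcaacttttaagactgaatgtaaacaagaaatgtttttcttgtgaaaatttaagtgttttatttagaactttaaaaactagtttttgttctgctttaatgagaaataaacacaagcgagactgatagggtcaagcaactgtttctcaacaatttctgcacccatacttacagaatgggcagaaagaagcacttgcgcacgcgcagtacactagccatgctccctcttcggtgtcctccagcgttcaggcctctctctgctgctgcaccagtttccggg
Mrps25 (chr6:92183974-92184273, minus strand): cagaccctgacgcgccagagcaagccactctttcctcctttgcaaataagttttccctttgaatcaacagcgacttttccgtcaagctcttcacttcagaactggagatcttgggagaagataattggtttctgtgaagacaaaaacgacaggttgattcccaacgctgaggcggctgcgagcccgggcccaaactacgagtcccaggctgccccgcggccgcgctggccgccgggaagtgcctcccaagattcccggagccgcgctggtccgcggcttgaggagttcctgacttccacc
Mrpl57 (chr14:57825989-57826288, plus strand): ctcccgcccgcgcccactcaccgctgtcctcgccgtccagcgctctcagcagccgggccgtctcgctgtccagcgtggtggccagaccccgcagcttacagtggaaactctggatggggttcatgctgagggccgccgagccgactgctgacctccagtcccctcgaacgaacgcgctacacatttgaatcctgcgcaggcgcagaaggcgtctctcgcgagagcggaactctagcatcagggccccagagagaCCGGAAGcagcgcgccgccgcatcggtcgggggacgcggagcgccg
Mrps12 (chr7:28741772-28742071, minus strand): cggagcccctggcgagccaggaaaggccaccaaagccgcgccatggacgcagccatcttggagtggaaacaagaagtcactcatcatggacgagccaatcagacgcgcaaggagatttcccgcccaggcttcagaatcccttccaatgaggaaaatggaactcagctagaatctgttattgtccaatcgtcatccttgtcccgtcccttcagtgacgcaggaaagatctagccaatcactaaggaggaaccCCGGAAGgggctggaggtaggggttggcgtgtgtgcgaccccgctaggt
Mrpl46 (chr7:78783040-78783339, minus strand): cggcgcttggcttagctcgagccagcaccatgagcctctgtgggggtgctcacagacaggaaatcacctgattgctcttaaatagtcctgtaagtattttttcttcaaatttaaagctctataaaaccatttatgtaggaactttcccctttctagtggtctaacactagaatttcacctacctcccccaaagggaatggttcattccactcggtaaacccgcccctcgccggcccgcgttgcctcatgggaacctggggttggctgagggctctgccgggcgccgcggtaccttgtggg
Mrps11 (chr7:78782881-78783180, plus strand): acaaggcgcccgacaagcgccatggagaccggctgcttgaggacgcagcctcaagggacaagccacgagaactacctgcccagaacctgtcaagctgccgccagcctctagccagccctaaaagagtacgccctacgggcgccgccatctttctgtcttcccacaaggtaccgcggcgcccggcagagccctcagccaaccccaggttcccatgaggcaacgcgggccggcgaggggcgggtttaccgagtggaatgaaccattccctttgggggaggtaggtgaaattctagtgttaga

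The letters CCGGAAG stood in 24 of the 71 member windows (33.8%), in 14% of the 12559 windows of measured genes and in 8.86% of all 32851 windows. The members' windows were no richer in G and C than those of measured genes, with a median of 58.7% against 59.0%. Of 28 such sites in member windows, 20 began within 50 bases of the gene start (71.4%, against 57.2% of the sites in windows of measured genes). The NRF1 core GCATGCG stood in 11.3% of member windows and 5.33% of those of measured genes. The YY1 core GATGGCG stood in 9.86% and 5.19%, and the E-box CACGTG, which MYC binds, in 9.86% and 9.11%. Some genes have several overlapping windows, and by gene the ETS letters were found in 24 of 65 members (36.9%) and 16.4% of 9882 measured genes. The NRF1 core was found in 12.3% and 6.18% of genes and the YY1 core in 10.8% and 6.25%. The order turned for the E-box, found in 5 of 65 members (7.69%) and 10.8% of measured genes, since 3 of the 7 member windows with it belong to Mrpl2. Of the windows printed above, those of Mrps18a, Mrpl57 and Mrps12 held CCGGAAG and the others did not hold these letters. A match of letters describes the window and is not a bound site. The windows of Mrpl46 and Mrps11 share 141 bases, and the starts of these genes, which run in opposite directions, lie 42 bases apart.

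Mrps18a had the smallest p of all members. Its values were 9.21, 9.13, 9.38 and 9.50 on WT arrays 1 to 4 and 9.64, 9.48, 9.55 and 9.60 on SIRT7 KO arrays 1 to 4. WT arrays 1, 2 and 3 lay below all SIRT7 KO arrays, and WT array 4 lay just above SIRT7 KO array 2. The difference was 0.26 ± 0.09 SE (limma adjusted p = 0.219). It passed the threshold without WT array 4 (0.33, limma adjusted p = 0.126) and with array weights, which give that array the least weight (0.29, limma adjusted p = 0.135).

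Mrpl16, a homologue of a bacterial protein at the core of the large subunit, had the largest difference. It read 10.11, 9.99, 10.38 and 10.13 on the WT arrays and 10.71, 10.56, 10.18 and 10.30 on the SIRT7 KO arrays. SIRT7 KO arrays 1 and 2 were the highest of all, whereas arrays 3 and 4 lay inside the WT range, and the groups overlapped. The difference was 0.29 ± 0.13 SE (limma adjusted p = 0.344). Mrps12, which in bacteria sits at the decoding centre of the small subunit, was high on the SIRT7 KO arrays where Mrpl16 was low. It read 9.43, 9.41, 9.52 and 9.67 on the WT arrays and 9.61, 9.44, 9.83 and 9.91 on the SIRT7 KO arrays, a difference of 0.19 ± 0.11 SE (limma adjusted p = 0.487). Here SIRT7 KO arrays 3 and 4 were the highest and the groups overlapped.

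Mrpl44, a large subunit protein without a bacterial ribosomal counterpart, was 1 of 2 members whose genotypes did not overlap, against 9.80% of all genes. Its values were 9.66, 9.48, 9.66 and 9.71 on the WT arrays and 9.74, 9.83, 9.97 and 9.72 on the SIRT7 KO arrays. The gap between the highest WT and the lowest SIRT7 KO value was smaller than the spread within either group. The difference was 0.19 ± 0.08 SE (limma adjusted p = 0.326), and its further probe sets gave 0.15 and 0.07. Mrpl54 read 8.23, 8.03, 8.17 and 8.27 on the WT arrays and 8.53, 8.33, 8.28 and 8.23 on the SIRT7 KO arrays. SIRT7 KO array 4 lay within the WT range, and the difference was 0.17 ± 0.09 SE (limma adjusted p = 0.417).

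On the lower side, Mrps25, a small subunit protein without a bacterial counterpart, was the other member without overlap. It read 8.47, 8.40, 8.47 and 8.55 on the WT arrays and 8.40, 8.31, 8.17 and 8.17 on the SIRT7 KO arrays. The lowest WT and the highest SIRT7 KO value were equal at this rounding, and SIRT7 KO arrays 3 and 4 were the lowest. The difference was -0.21 ± 0.07 SE (limma adjusted p = 0.234). Its further probe sets, which are dim at means of 5.04 and 4.85, gave -0.05 and -0.19.

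Mrpl23, whose bacterial homologue lies at the exit of the peptide tunnel, read 10.26, 10.12, 10.28 and 9.86 on the WT arrays and 10.11, 9.80, 9.90 and 9.85 on the SIRT7 KO arrays. WT array 4 lay among the SIRT7 KO arrays, and the difference was -0.22 ± 0.11 SE (limma adjusted p = 0.404). Mrpl14, a homologue of a bacterial large subunit protein, read 10.06, 10.16, 9.96 and 10.06 against 10.00, 9.98, 9.78 and 9.68 in the same order. SIRT7 KO arrays 3 and 4 were below all WT arrays and arrays 1 and 2 were not. The difference was -0.20 ± 0.09 SE (limma adjusted p = 0.331).

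Mrps24 and Mrpl41 had the next largest negative differences. Mrps24 read 11.33, 11.35, 11.27 and 11.48 on the WT arrays and 11.33, 11.20, 11.14 and 11.12 on the SIRT7 KO arrays, a difference of -0.16 ± 0.07 SE (limma adjusted p = 0.360). Its second probe set gave -0.19 (unadjusted p = 0.0459, limma adjusted p = 0.326). Mrpl41, a large subunit protein without a bacterial counterpart, read 10.50, 10.49, 10.58 and 10.58 on the WT arrays and 10.50, 10.50, 10.18 and 10.33 on the SIRT7 KO arrays. In both genes SIRT7 KO arrays 3 and 4 were the lowest of all, and SIRT7 KO array 1 lay within the WT range. The difference of Mrpl41 was -0.16 ± 0.09 SE (limma adjusted p = 0.446). Among all member probe sets, the only other one with an unadjusted p under 0.05 was a further probe set of Mrps9 at -0.25 (limma adjusted p = 0.263).

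**Figure D2:**
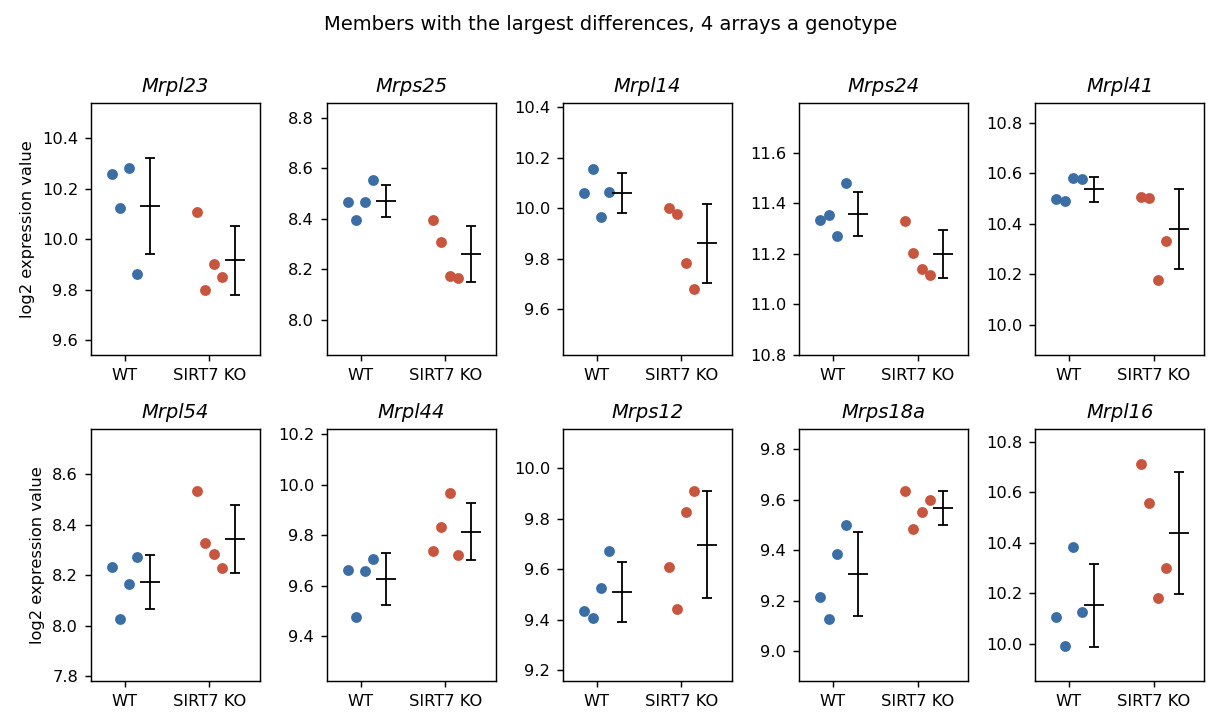
Log2 expression values of the 5 members with the most negative (top) and the 5 with the most positive differences (bottom). Points are the 4 arrays of a genotype, from array 1 on the left to array 4 on the right, and the bar is the mean with the SD (n = 4). Each y axis spans the same 1 log2 unit, and only Mrps25 and Mrpl44 have no overlap between WT and SIRT7 KO.

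The brightest members were Mrpl39, Mrpl12 and Mrps24, at means of 12.05, 11.40 and 11.28, and the dimmest were Mrps6, Mrpl37 and Mrpl19, at 7.75, 7.96 and 8.02. Brightness depends on the probes as well as on the RNA, so these levels do not rank the genes. Mrpl39, a large subunit protein without a bacterial counterpart, had a WT mean of 12.04 ± 0.09 (SD, n = 4) and a SIRT7 KO mean of 12.05 ± 0.11 (SD, n = 4), a difference of 0.02 ± 0.08 SE. Mrpl12, the stalk protein that meets the translation factors, was 11.35 ± 0.06 (SD, n = 4) and 11.44 ± 0.16 (SD, n = 4) in the same order, a difference of 0.08 ± 0.09 SE (limma adjusted p = 0.727). This gene lies on the same chromosome as Sirt7, with 10 protein-coding genes between them. The differences of Mrps6, Mrpl37 and Mrpl19 were 0.01, 0.06 and 0.11.

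The members moved together from array to array, within each genotype. For every gene the mean of its genotype was taken off, and the Pearson correlation of these deviations over the 8 arrays was computed for each of the 2701 pairs of members. Its median was 0.497, and 84.0% of the pairs were positive. Over the pairs of all 12393 genes the median was 0.005 with 50.4% positive, and over genes above the median brightness it was 0.008. These correlations are a description over 8 arrays, which all genes share, and they carry no test.

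The arrays on which the members were high or low could be named. On SIRT7 KO array 1, 69 of 74 members lay above the mean of their genotype, with a median deviation of 0.111. On SIRT7 KO array 2 there were 58 of 74, with a median of 0.045. On SIRT7 KO array 3 only 15 of 74 did, with a median of -0.065, and on SIRT7 KO array 4 only 8 of 74, with a median of -0.078. The first pair of SIRT7 KO livers was thus high for most of the family and the other pair low. Among the WT arrays, 27, 21, 58 and 43 of 74 members were above the mean on arrays 1 to 4, with medians of -0.027, -0.056, 0.048 and 0.027. Over all genes the median deviation stayed between -0.014 and 0.012 on every array, and 44.9% to 54.4% of genes lay above.

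The spread of the family was wider among the SIRT7 KO arrays than among the WT arrays, with no test of that difference. The mean over the 74 members was 9.68, 9.66, 9.75 and 9.73 on the WT arrays and 9.81, 9.75, 9.63 and 9.62 on the SIRT7 KO arrays. The groups thus had nearly the same mean, 9.71 ± 0.04 (SD, n = 4) and 9.70 ± 0.09 (SD, n = 4), and the SIRT7 KO arrays lay both above and below the WT arrays. The median pairwise correlation was 0.273 over the 4 WT arrays alone and 0.732 over the 4 SIRT7 KO arrays alone, against 0.007 and 0.008 for all genes. A single component carried 53.9% of the variance of the members' deviations, and the second carried 18.7%.

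**Figure D3:**
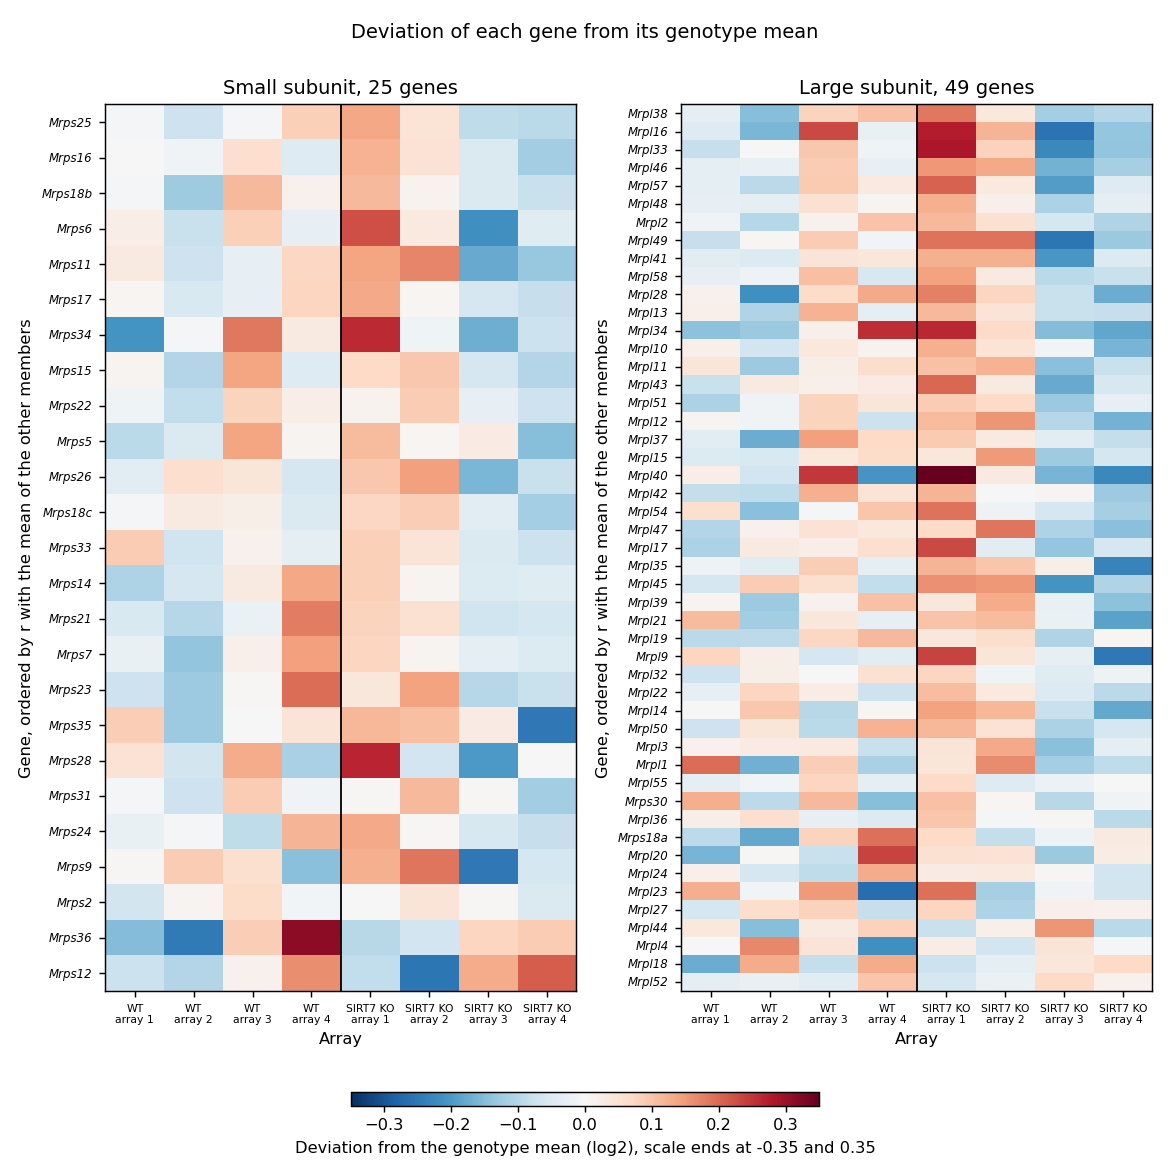
Deviation of each of the 74 genes (rows) from the mean of its genotype on each array (columns), on a log2 colour scale that ends at -0.35 and 0.35. Genes are ordered by their correlation with the mean of the other members, and most rows are red on SIRT7 KO arrays 1 and 2 and blue on arrays 3 and 4.

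Both subunits took part. The median correlation was 0.493 between pairs of small subunit genes, 0.489 between pairs of large subunit genes and 0.502 between a gene of the small and a gene of the large subunit. Against the mean of the other members, 58 of 74 genes had a correlation over 0.5, 22 of them of the small subunit and 36 of the large, and 24 had one over 0.8. The median was 0.71. The highest values were those of Mrpl38 and Mrpl16 (both 0.94), followed by Mrpl33, Mrpl46, Mrps25, Mrpl57 and Mrpl48 with 0.92 each. Mrpl38, Mrpl33, Mrpl46, Mrpl57, Mrpl48 and the other genes named for their correlation were chosen after their values were seen.

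Mrpl57 shows the common pattern with almost no difference between genotypes. It read 10.40, 10.34, 10.52 and 10.47 on the WT arrays and 10.65, 10.48, 10.24 and 10.40 on the SIRT7 KO arrays, a difference of 0.01 ± 0.09 SE. SIRT7 KO array 1 was the highest and SIRT7 KO array 3 the lowest of the 8. The head-to-head genes Mrpl46 and Mrps11, whose windows are printed above, had a correlation of 0.84 with each other. Mrpl46 read 9.61, 9.62, 9.74 and 9.62 on the WT arrays and 9.84, 9.82, 9.52 and 9.57 on the SIRT7 KO arrays. Mrps11 read 8.36, 8.26, 8.31 and 8.41 on the WT arrays and 8.57, 8.60, 8.25 and 8.30 on the SIRT7 KO arrays. Both were highest on SIRT7 KO arrays 1 and 2, and in both the genotypes overlapped, with differences of 0.04 and 0.10.

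A few members did not follow. The correlation with the mean of the others was below 0 for 6 of 74, namely Mrps12 (-0.51), Mrpl52 (-0.45), Mrpl18 (-0.43), Mrpl4 (-0.31), Mrpl44 (-0.06) and Mrps36 (-0.03). Mrpl18 read 10.08, 10.38, 10.17 and 10.38 on the WT arrays and 10.21, 10.26, 10.33 and 10.36 on the SIRT7 KO arrays, the reverse of the family's order among SIRT7 KO livers. Mrps36, whose protein is no part of the ribosome in current use, was lowest on WT array 2 (8.80) and highest on WT array 4 (9.36). Mrps12, Mrpl18, Mrpl4 and Mrps36 had 1 probe set each. The further probe sets of Mrpl44 had correlations of 0.11 and 0.63, and those of Mrpl52 ran from -0.22 to 0.26.

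Windows with and without CCGGAAG held genes with like correlations. The 24 genes that held the letters had a median correlation with the other members of 0.70 and a range from -0.51 to 0.92, and the 41 that did not had a median of 0.72 and a range from -0.06 to 0.94. Their median differences between genotypes were 0.001 and -0.020.

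**Figure D4:**
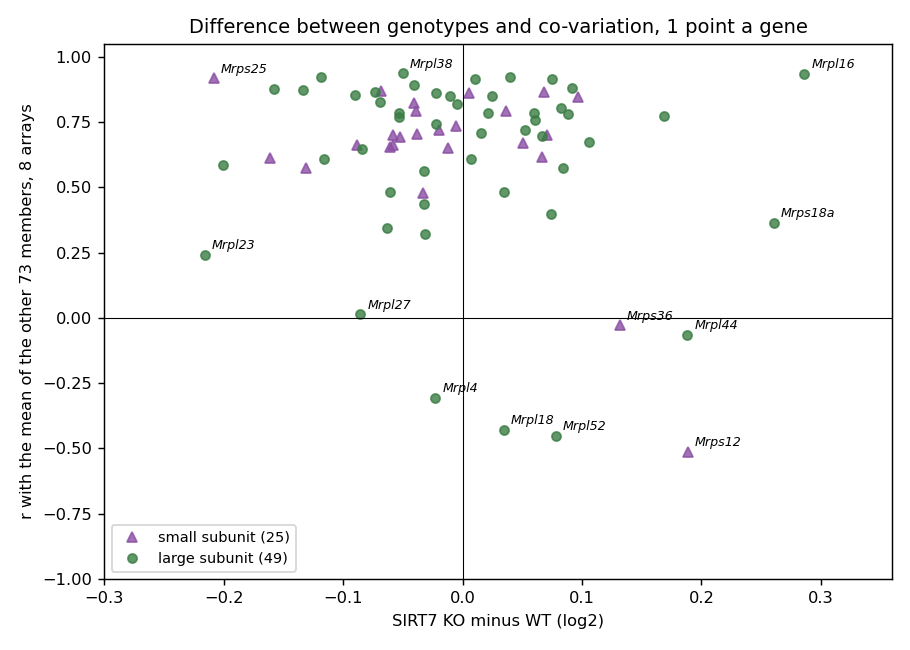
Correlation of each gene with the mean of the other 73 members over 8 arrays (y axis, deviations from the genotype mean) against its difference between genotypes (log2, x axis), 1 point a gene. Most genes lie above 0.5, Mrpl16 combines the largest difference with a correlation of 0.94, and Mrps12, Mrpl52, Mrpl18 and Mrpl4 lie lowest.

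The further, dimmer probe sets of a gene followed the family less closely than the brightest. Of the 74 brightest probe sets, 58 had a correlation over 0.5 with the mean of the other genes, with a median of 0.71, whereas of the 53 further probe sets 20 did, with a median of 0.37. The median correlation of a further probe set with the brightest of its own gene was 0.42. For Mrpl15, the brightest probe set had 0.79 and the next 3 in brightness had 0.90, 0.77 and 0.64, while those with means of 6.21 and 3.63 had -0.47 and -0.36. In 15 of the 33 genes with several probe sets the differences between genotypes had opposite signs, and in 0 of these 15 did limma give any probe set an unadjusted p under 0.05.

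Respiratory chain genes were high and low on the same SIRT7 KO arrays. The 79 nuclear genes of respiratory chain subunits, whose products meet the mitochondrially made ones in the inner membrane, had median deviations of 0.049, -0.093, 0.053 and -0.002 on the WT arrays and 0.086, 0.061, -0.040 and -0.107 on the SIRT7 KO arrays. Both lists were low on WT array 2 and high on WT array 3, and they differed in sign on WT arrays 1 and 4. Pairs of these genes had a median correlation of 0.596. The 45 genes of the cytosolic ribosome had medians of -0.047, 0.031, -0.025 and 0.048 on the WT arrays and 0.022, -0.050, 0.003 and 0.030 on the SIRT7 KO arrays, a different order from that of the mitochondrial ribosome, and a median correlation of 0.307. Limma called 0 of 79 and 0 of 45, against 4.65% of all genes. At an unadjusted p under 0.05 there were 3 and 4, against 15.6% of all genes.

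**Figure D5:**
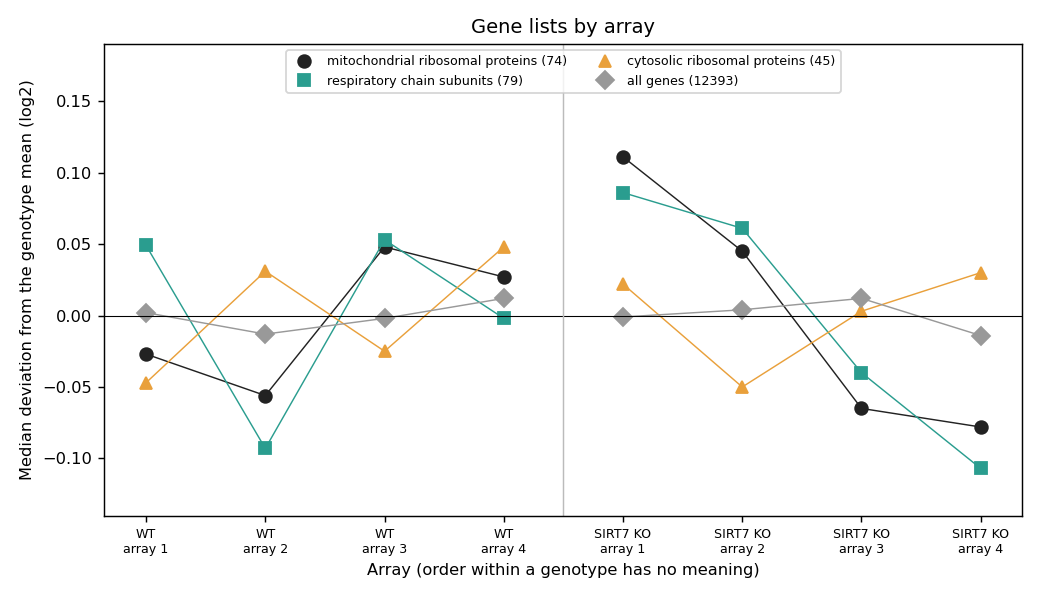
Median deviation from the genotype mean (log2, y axis) on each array (x axis) for the 74 mitochondrial ribosomal protein genes, 79 respiratory chain genes, 45 cytosolic ribosomal protein genes and all 12393 genes. Lines only join the points of a list within a genotype. The mitochondrial ribosome and the respiratory chain are above 0 on SIRT7 KO arrays 1 and 2 and below 0 on arrays 3 and 4.

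Markers of other cell types also differed between the arrays of a genotype. The mean of 12 macrophage markers was 9.06, 10.02, 9.34 and 8.98 on the WT arrays and 9.37, 9.26, 10.12 and 9.89 on the SIRT7 KO arrays. It was thus highest on WT array 2 and SIRT7 KO arrays 3 and 4, the arrays on which the members were lowest in their genotype. The other WT arrays did not follow that order. WT array 3 had the next highest macrophage mean (9.34), and the members were highest there. Limma called 0 of the 12 (0 at an unadjusted p under 0.05), 12 of 12 had a positive difference, and the dimmest of them, Marco, had a mean of 6.68. The mean of 6 neutrophil markers ranged from 5.05 to 9.64 in WT and from 5.01 to 8.65 in SIRT7 KO livers, with Cxcr2 dimmest at 4.36, and was highest on WT arrays 2 and 3 and SIRT7 KO array 4. Limma called 0 of these 6 as well (0 at an unadjusted p under 0.05), against 4.65% and 15.6% of all genes. All 6 had a negative difference, with a median of -1.274. The mean of the hepatocyte markers was 14.06, 14.06, 14.13 and 14.11 on SIRT7 KO arrays 1 to 4. It too was thus higher on SIRT7 KO arrays 3 and 4. Among the WT arrays it was highest on array 4 (14.26), not on array 2.

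The calls between genotypes among marker genes were 4, named here after their values were seen. Over all genes, 4.65% were called and 15.6% had an unadjusted p under 0.05. Of 8 endothelial markers, 3 had a positive and 5 a negative difference, with a median of -0.056, and 1 was called higher and 1 lower. Lyve1, a hyaluronan receptor, rose by 1.21 ± 0.21 SE (limma adjusted p = 0.0463), and Stab1, a scavenger receptor, had a difference of -0.30 ± 0.08 SE (limma adjusted p = 0.132). Of 8 stellate cell markers, 7 had a positive difference, 4 had an unadjusted p under 0.05 and 1 was called, Dcn, a matrix proteoglycan (0.41 ± 0.10 SE, limma adjusted p = 0.103). Of 8 lymphocyte markers, 7 had a negative difference and 1 was called, Cd3g, a part of the T cell receptor complex (-0.39 ± 0.11 SE, limma adjusted p = 0.137). All 8 were dim, with means from 4.58 for Cd3g itself to 5.77 for Cd3e. The median over probe sets was 6.35 and the lower quartile 4.56. The call of Lyve1 held without any single array (adjusted p of at most 0.11), whereas that of Stab1 was lost without any single array but WT array 2, that of Dcn without any but WT array 2 or SIRT7 KO array 2, and that of Cd3g without any but WT array 4 or SIRT7 KO array 1. Limma called 0 of 4 cholangiocyte markers (0 at an unadjusted p under 0.05). Fewer cells of a type and less RNA per cell cannot be told apart in whole liver, and the part of these cells in the members' pattern was not tested.

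For GAPDH, the excess of 3′ over 5′ control signal, a measure that grows with RNA degradation, was 0.24, 0.20, 0.29 and 0.16 on the WT arrays and -0.02, 0.14, 0.15 and 0.16 on the SIRT7 KO arrays (exact two-sided permutation p = 0.0286, the smallest that 4 against 4 arrays allow). SIRT7 KO array 1, on which the members were highest, was also the array with the lowest such difference for GAPDH and for beta-actin (1.29, against 1.47 to 1.65 on the others). From SIRT7 KO array 1 to array 4 the GAPDH difference rose at each step while the median deviation of the members fell. Among the WT arrays there was no such order. The members were highest on WT array 3, which had the highest GAPDH difference (0.29). They were next highest on WT array 4, which had the lowest (0.16). The mean over 45 spike-in probe sets was 8.63 to 8.76 on the WT arrays and 8.39, 8.61, 8.58 and 8.51 on SIRT7 KO arrays 1 to 4, lower in SIRT7 KO without overlap (-0.157, exact two-sided permutation p = 0.0286) and lowest on SIRT7 KO array 1. The part of RNA quality and hybridisation in the members' pattern was not tested. Without SIRT7 KO array 1 the median pairwise correlation of the members was 0.361, and without WT array 4 it was 0.589.

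The rest of the machinery around the mitochondrial ribosome held 1 gene that rose and 1 that fell. For comparison, limma called 4.65% of all genes, 15.6% had an unadjusted p under 0.05, and 9.80% had no overlap between genotypes. Whether these lists differ from those shares was not tested. Of 13 measured aminoacyl-tRNA synthetase and amidotransferase genes of mitochondria, 1 was called, namely Qrsl1, a subunit of the enzyme that makes glutaminyl-tRNA in mitochondria. Qrsl1 read 7.71, 7.89, 8.07 and 7.92 on the WT arrays and 8.41, 8.49, 8.26 and 8.63 on the SIRT7 KO arrays, with no overlap. It rose by 0.55 ± 0.10 SE (limma adjusted p = 0.0507), and the call held without any single array (adjusted p of at most 0.14). Its second, dimmer probe set gave 0.33 (limma adjusted p = 0.278).

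Of 15 regulators of mitochondrial genes, 1 was called, namely Pprc1, a coactivator related to PGC-1 that works with NRF1. Pprc1 read 7.40, 7.49, 7.72 and 7.56 on the WT arrays and 7.15, 7.15, 6.99 and 7.31 on the SIRT7 KO arrays, with no overlap. It fell by 0.39 on the log2 scale (SE 0.094, limma adjusted p = 0.0994). The call was lost without WT array 1, 2 or 3 and without SIRT7 KO array 1, 2 or 3, with adjusted p up to 0.19 and differences from -0.44 to -0.33. Of the 15 regulators, 13 had a negative difference and 2 a positive one.

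The factors themselves did not pass the test. Gabpa lay at 9.57 ± 0.08 (SD, n = 4) in WT and at 9.44 ± 0.06 (SD, n = 4) in SIRT7 KO (-0.13 ± 0.07 SE, limma adjusted p = 0.433). Gabpb1, the partner that SIRT7 is known to deacetylate, had a difference of -0.12 ± 0.10 SE (limma adjusted p = 0.636) and Nrf1 one of -0.12 ± 0.08 SE (limma adjusted p = 0.556). The Gabpb1 probe set is dim, at a mean of 5.77, and a second one at 5.22 gave 0.03, the opposite sign. These are RNA values and do not show the state of the proteins. Myc had a difference of 0.72 ± 0.55 SE (limma adjusted p = 0.605), with 8.50 on WT array 4 and 6.25 to 6.55 on the other WT arrays.

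In the remaining 4 lists of this machinery, 0 genes were called by limma. Of 5 other proteins of the mitochondrial ribosome (0 at an unadjusted p under 0.05), Chchd1 had the smallest p, with a difference of -0.13 ± 0.07 SE (limma adjusted p = 0.420). Of 6 translation factors (0 at an unadjusted p under 0.05), Gfm1, an elongation factor, had the smallest, with 0.10 ± 0.13 SE (limma adjusted p = 0.777). It was highest on SIRT7 KO array 1 (10.69) and lowest on SIRT7 KO array 4 (10.28) of the SIRT7 KO arrays. Of 22 assembly factors (2 at an unadjusted p under 0.05), Mrm1, which methylates the large ribosomal RNA, had -0.34 ± 0.12 SE (limma adjusted p = 0.227). Of 17 genes that maintain or transcribe mitochondrial DNA (4 at an unadjusted p under 0.05), Polg2, the accessory subunit of the mitochondrial DNA polymerase, had -0.34 ± 0.10 SE (limma adjusted p = 0.163). Polg2 passed the threshold in 6 of 15 alternatives, with adjusted p from 0.113 with array weights to 0.149 with the replicate block. The median pairwise correlation was 0.394 for the other ribosomal proteins, 0.401 for the translation factors and 0.197 for the assembly factors. It was 0.209 for the synthetases and 0.023 for the genes of mitochondrial DNA. All were below the 0.497 of the members, and these lists are smaller. On SIRT7 KO arrays 1 and 2 the median deviations of the translation factors, assembly factors, synthetases and mitochondrial DNA genes were positive. On SIRT7 KO arrays 3 and 4 they were negative, as for the members. For the translation factors they were 0.122, 0.031, -0.034 and -0.084, and for the synthetases 0.037, 0.044, -0.032 and -0.041. The other ribosomal proteins differed on array 3 (0.004) and the regulators on arrays 2 to 4 (-0.069, 0.077 and 0.003).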

How the data were processed

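Log2 expression values for 22690 probe sets on 8 arrays were deposited by the authors as 1 table. The methods of the study name RMA for background correction, normalization and summarising, while GCRMA is the tool in the processing notes of the submitters. It is unknown which made the values, and versions are not given in the sources here. The values were used as they stand, after 64 control probe sets were left out.

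Gene names came from the platform annotation, which can be old, and all 74 members matched the RefSeq gene table by Entrez ID with the same symbol. Members and gene lists were chosen with earlier results of these data known. SIRT7 KO was compared with WT in limma 3.58.1 (R 4.3.3; lmFit and eBayes, genotype as the only term, two-sided), with Benjamini-Hochberg adjustment over 22626 probe sets and a threshold of 0.15, the rate in the methods of the study. The fit was tested on simulated data. The 95% intervals use the moderated standard error and degrees of freedom of that fit. Single measures were compared by an exact permutation test. With 4 arrays a genotype, the number of arrays limits the precision.

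Named were the 5 members with the largest difference in each direction, the 3 brightest and 3 dimmest, those without overlap between genotypes, in each pathway list the called genes and the gene with the smallest p, and Sirt7, Gabpa, Gabpb1, Nrf1 and Myc. Alternatives were a threshold of 0.05, a trended and robust variance, array weights, quantile normalization, centring on the array median, leaving out dim probe sets, averaging the probe sets of a gene, preferring probe sets without a suffix for shared or similar transcripts, a replicate block, leaving out each array, and for the correlation Spearman's coefficient and values not centred on the genotype.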

Additional observations from a re-analysis of the deposited data

Results flagged for a closer look

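Among the values named in the report, 62 groups of 4 arrays were searched for an array that stood apart, taken as a gap to the nearest other array, relative to the whole range, above Dixon's 95% critical value for 4 values, and 3 were found. Chance gives about 1 in 20. Myc was 8.50 on WT array 4 and 6.25 to 6.55 on the other WT arrays (gap over range 0.865). The difference between the 3′ and 5′ probe sets of GAPDH was -0.02 on SIRT7 KO array 1 and 0.14 to 0.16 on the other SIRT7 KO arrays (gap over range 0.869). That of beta-actin was 1.65 on WT array 1 and 1.58 to 1.59 on the other WT arrays (gap over range 0.937). No array stood apart in this way for any of the 15 named members or for the mean of the 74 members.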

How the results depend on the processing

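The count of members called was 0 higher and 0 lower under most alternatives, among them the threshold of 0.05, quantile normalization, centring, averaging probe sets and the replicate block. The exceptions were array weights and leaving out WT array 4, each with 1 of 74 higher, Mrps18a, where 6.31% and 4.24% of all genes were called (range without 1 array 0 to 1 higher and 0 lower). The median difference of members was -0.016 and ran from -0.053 to 0.017 without 1 array. The ranges were -0.070 to 0.020 for the small subunit and -0.041 to 0.023 for the large subunit. With quantile normalization the median difference was 0.006 for members, -0.008 for the small and 0.007 for the large subunit. The sign for members thus depends on single arrays and on the normalization. The median pairwise correlation of 0.497 was 0.404 when the probe sets of a gene were averaged, 0.410 on values not centred on the genotype, and 0.361 to 0.589 without 1 array. Sirt7 stayed called throughout (-4.30 to -4.13 without 1 array), and the control differences ran from -0.136 to -0.075 for GAPDH, -0.152 to -0.038 for beta-actin and -0.187 to -0.113 for the spike-ins. Of the 15 named members, 13 kept their direction in all 15 alternatives. Mrpl39 (0.016) ran from -0.028 to 0.063 when 1 array was left out, negative for WT array 2 and for SIRT7 KO array 2, and was -0.015 with averaged probe sets. Mrps6 (0.0050) ran from -0.070 to 0.077, negative for WT arrays 2 and 4 and for SIRT7 KO arrays 1 and 2. The cause was not tested. The deviations of arrays with the same replicate number in the labels had correlations of 0.26, -0.30, -0.18 and 0.11. These values cannot show whether the numbers pair the arrays, because arrays with different numbers were not compared. With the replicate block 0 members were called, the smallest adjusted p was 0.258, and 2.97% of all genes were called in place of 4.65%, while Pprc1 was no longer called (adjusted p = 0.186). Polg2 passed the threshold with the block (adjusted p = 0.149), and also with array weights (0.113), without dim probe sets (0.143), with averaged probe sets (0.147), when WT array 4 (0.140) or SIRT7 KO array 1 (0.142) was left out.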
